A study of Mus musculus with 6 samples.

Results

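The genes described here encode 10 proteins that start complement activation. They are C1ra, C1s1, C4b and C2 of the classical pathway, and Mbl1, Mbl2, Masp1 and Masp2 of the lectin pathway. Cfb belongs to the alternative pathway, and C3 is cleaved by the C3 convertases of these pathways. The 10 genes were chosen by name from pathway membership and matched to the gene identifiers of the data through GENCODE vM21. All 10 were among the 54532 identifiers, and 9 were among the 11672 genes that passed the filter of a mean of at least 0.5 FPKM, where FPKM is the read count scaled to exon length and to library size. Cfb did not pass it. The libraries were made from liver RNA of untreated mice, 3 labelled wild type (WT) and 3 labelled as a liver-specific knockout of Arid2 (LKO), which encodes a DNA-binding component of PBAF, a SWI/SNF-type chromatin remodeller. The sources used here do not give age, strain, sex or diet of the animals, or what drives the deletion in liver. The labels do not say that each library came from a separate animal, so the p-values may measure a technical spread between libraries only.

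Complement is a cascade of plasma proteins, most of them made by hepatocytes, that marks microbes and damaged cells for removal. In the classical pathway, antibody-bound C1q activates the proteases C1r and C1s, and C1s cleaves C4 and C2 into a C3 convertase. In the lectin pathway, mannose-binding lectins recognise sugars and act through the MASP proteases on the same C4 and C2, and in the alternative pathway factor B joins C3b to form a convertase of its own. C3 and factor B are also acute phase proteins of the liver, raised by interleukin 6 and interleukin 1.

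The libraries held 13947787 to 18159285 reads, recovered from the FPKM steps. Values are given below in the order of replicates 1, 2 and 3. Arid2 itself had 2.65, 1.74 and 1.79 FPKM in the WT libraries against 2.55, 1.33 and 2.04 FPKM in LKO (limma adjusted p = 0.974), so it did not check the labels, and LKO below means the libraries labelled so. These values sum the whole gene and cannot show a deleted exon. Both libraries numbered 1 stood apart, with 2003 and 2368 genes at 1 to 5 reads against 3913 to 4263 in the other 4. Of the 10 complement genes, 6 were lowest within WT in replicate 1 and 6 were lowest within LKO in replicate 1, and 5 of them were the same genes. LKO replicate 3 was the highest LKO library for 7 of the 10 and the lowest for none. The same shares over all genes were not counted, so these counts do not set the 10 apart from other genes. Mitochondrial transcripts took 4.76% of reads in LKO replicate 3 and 27.6% in LKO replicate 1. The part of these library differences in the results below was not tested. Markers of hepatocytes were abundant in all libraries, with 11 genes summing to 63332 to 74364 FPKM in WT and 60175 to 83339 FPKM in LKO.

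None of the 9 tested genes changed between the genotypes past the threshold (limma-trend on log2(FPKM + 1), adjusted p under 0.05), against 0.0428% of all genes tested (0.00857% higher and 0.0343% lower in LKO). The gene with the lowest p was C2, lower in LKO, and the one with the largest positive difference was C3. At an unadjusted p under 0.05 there was 1 of 9, C2, against 9.22% of all genes (4.28% higher and 4.93% lower). Groups did not overlap for 1 of 9, again C2, against 15.4% of all genes, of which 7.42% had LKO below. Both shares of the 9 are close to the background. On the log2 scale 5 genes were fitted above 0 and 4 below, with a median difference of 0.04 against 0.03 over all genes. With 3 against 3 libraries an exact permutation test of 1 gene cannot give a p under 0.1. Voom called none of the 9 either. Array quality weights, which let some libraries count more than others, called C2 alone (limma adjusted p = 0.0412), together with 10.2% of all genes.

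**Figure D1:**
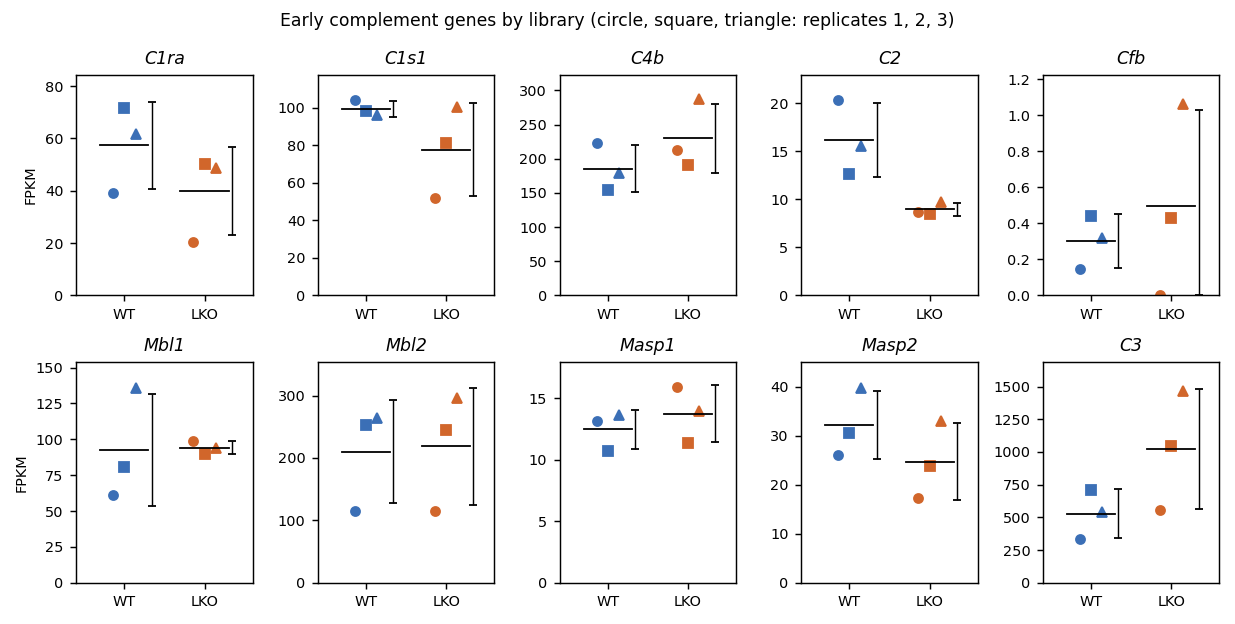
FPKM of the 10 early complement genes in each library (blue WT, orange LKO; circle, square and triangle are replicates 1, 2 and 3), with the mean as a line and 1 SD as a bar, which stops at 0. C2 lies at 8.44 to 9.71 FPKM in LKO and at 12.7 to 20.3 FPKM in WT, and the groups overlap in the other 9 panels.

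C2, the serine protease that is cleaved beside C4 to form the classical and lectin C3 convertase, was the one member with separate groups. C2 (ENSMUSG00000024371, mm10 chromosome 17, 34862604 to 34898265, minus strand) measured 20.3, 12.7 and 15.5 FPKM in WT but 8.70, 8.44 and 9.71 FPKM in LKO. Every LKO library lay below every WT library, and the LKO values were close together while the WT values spread. The means were 16.2 ± 3.85 and 8.95 ± 0.668 FPKM (SD, n = 3 each), a ratio of 0.554. The log2 difference was -0.77 ± 0.26 (SE; 95% interval -1.37 to -0.16; limma adjusted p = 0.425, unadjusted p = 0.0204). It rested on 863 to 1515 reads in WT and 428 to 714 in LKO, so counting error was at most 4.83% of a value. Without both libraries numbered 1 it was -0.58 (limma adjusted p = 0.474). In these bulk samples, fewer cells of a type and less RNA per cell cannot be told apart.

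Cfb encodes factor B, the protease subunit of the alternative pathway convertase, and lies just downstream of C2 on the same strand (ENSMUSG00000090231, chromosome 17, 34856374 to 34862518). It was at 0.147, 0.443 and 0.317 FPKM in WT, from 8, 22 and 14 reads. LKO replicates 1 to 3 were at 0, 0.430 and 1.06 FPKM, from 0, 19 and 57 reads. The groups overlapped, with both the lowest and the highest value in LKO. A count of 0 in LKO replicate 1 allows up to 3 reads, or 0.0836 FPKM, by counting error alone. These levels cannot be read as the amount of Cfb RNA. The annotation places Gm20547 over both genes, as a transcript that joins exons of C2 to exons of Cfb, and 79.5% of the 2825 exon bases of Cfb are also exon of Gm20547. Of the 579 bases left to Cfb alone, the main block lies at its 5′ end.

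**Figure D2:**
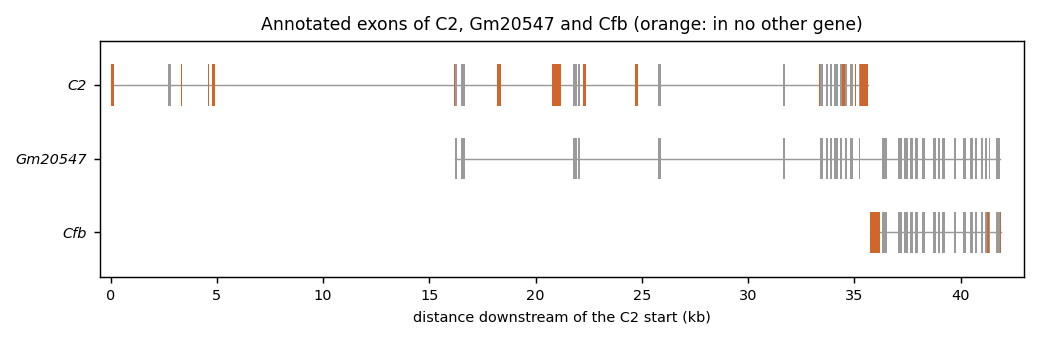
Annotated exons of C2, Gm20547 and Cfb (GENCODE vM21) against the distance downstream of the C2 start in kilobases. Orange marks exon bases that belong to no other gene, 2055 of 3872 for C2 and 579 of 2825 for Cfb, and grey the remaining exon bases.

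Gm20547 was listed at 0 in all 6 libraries. The same held for most genes in its position: of 752 genes whose exon bases all lay under another gene on the same strand, 734 were listed at 0 in every library. Of 454 genes covered wholly by genes on the opposite strand alone, 451 were listed at 0, against 64.2% of the 42753 genes that shared no exon base. C2 shares 46.9% of its exon bases, with Gm20547 and the opposite-strand gene Zbtb12. Reads over the unshared bases alone were not counted. If all reads of C2 had come from them, there would be 420 to 737 reads per kilobase in WT and 208 to 347 in LKO, before scaling to library size. The same division for Cfb gives 13.8 to 38.0 in WT and 0 to 98.4 in LKO. The fold between groups does not depend on the length used, but the FPKM of both genes does.

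C4b encodes C4, which binds covalently to the target surface after cleavage by C1s or MASP-2. C4b (ENSMUSG00000073418, chromosome 17, 34728380 to 34743882, minus strand) was at 223, 155 and 179 FPKM in WT and at 212, 191 and 287 FPKM in LKO. The groups overlapped, and LKO replicate 3 was the highest. The log2 difference was 0.30 ± 0.32 (SE; 95% interval -0.45 to 1.06; limma adjusted p = 0.847). Its neighbour C4a encodes the sex-limited protein of mice, a close copy of C4. Over 5204 aligned bases of the C4b coding sequence the copies were 96.1% identical, and 15.2% of the 100-base windows of C4b transcripts also occurred in C4a. The sources used here do not give the read length, so how many reads could be assigned to either copy is unknown. To show how a read can tell them apart, the 90-base window of the C4b coding sequence with the most differences (coding bases 2675 to 2764) is given for both copies from GENCODE vM21 transcripts, 5′ to 3′, with the 14 differing bases in capitals.
C4b: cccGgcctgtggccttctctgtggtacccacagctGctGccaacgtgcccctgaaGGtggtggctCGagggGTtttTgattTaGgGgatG
C4a: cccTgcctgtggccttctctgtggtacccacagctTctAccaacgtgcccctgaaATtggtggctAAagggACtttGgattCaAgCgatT

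C4a varied more than any early complement gene that passed the filter. It was at 23.8, 8.50 and 9.67 FPKM in WT and at 50.7, 18.6 and 0.467 FPKM in LKO, from 3997, 1808 and 55 reads in LKO replicates 1 to 3. LKO held both the highest and the lowest value, and the log2 difference was -0.25 ± 1.19 (SE; limma adjusted p = 0.973). Without LKO replicate 3 it was 1.23. As a share of C4a and C4b FPKM together, C4a took 9.65%, 5.20% and 5.13% in WT and 19.3%, 8.89% and 0.162% in LKO. The library with the least C4a thus had the most C4b. Summed over both copies, the level was 246, 163 and 189 FPKM in WT and 263, 210 and 287 FPKM in LKO, again overlapping between groups.

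**Figure D3:**
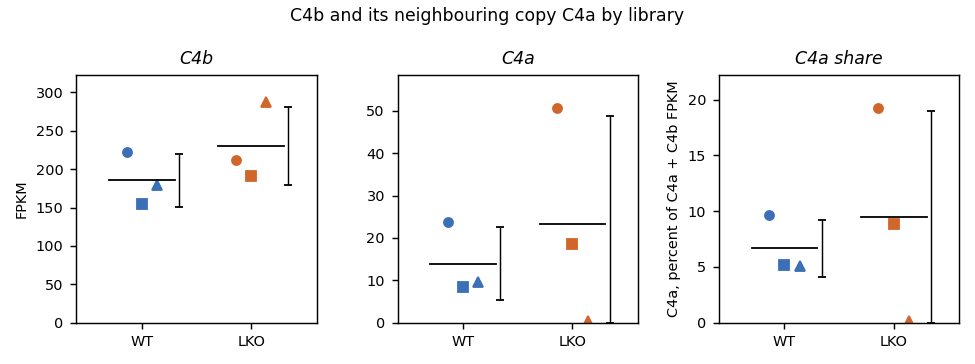
FPKM of C4b and C4a and the share of C4a in their summed FPKM (percent) in each library (blue WT, orange LKO; circle, square and triangle are replicates 1, 2 and 3; line, mean; bar, 1 SD, which stops at 0). LKO replicate 3 has 287 FPKM of C4b but 0.467 FPKM of C4a, and LKO replicate 1 has 50.7 FPKM of C4a.

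C1ra and C1s1 encode the protease pair of the C1 complex, in which C1r cleaves C1s. Their genes face each other on chromosome 6 (C1ra, ENSMUSG00000055172, 124512405 to 124523443, plus strand; C1s1, ENSMUSG00000038521, 124530345 to 124542359, minus strand). C1ra was at 39.1, 71.5 and 61.6 FPKM in WT and at 20.5, 50.3 and 48.8 FPKM in LKO. C1s1 was at 104, 98.0 and 95.9 FPKM in WT and at 51.6, 81.0 and 100.4 FPKM in LKO. Both were lowest in LKO replicate 1, and both overlapped between the groups. C1s1 differed little within WT (SD 4.38% of the mean) and more within LKO (31.6%).

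The log2 difference was -0.58 ± 0.43 for C1ra (SE; 95% interval -1.59 to 0.44; limma adjusted p = 0.767) and -0.40 ± 0.33 for C1s1 (95% interval -1.18 to 0.37; limma adjusted p = 0.791). Without LKO replicate 1 the differences were -0.17 and -0.14, and without both libraries numbered 1 they were -0.42 and -0.10. The copies C1rb and C1s2 were at most 0.0867 and 0.0296 FPKM, from 4 reads or fewer, although 35.9% of the 100-base windows of C1ra transcripts also occurred in other genes, C1rb among them. C1s1 shares 18.4% of its exon bases with Gm16567 on the opposite strand, which was listed at 0 throughout. The C1q subunit genes C1qa, C1qb and C1qc, expressed by macrophages, overlapped between groups, at 6.09 to 16.4, 4.77 to 9.58 and 1.76 to 5.42 FPKM in WT. In LKO they ranged over 7.69 to 20.4, 3.29 to 14.6 and 2.82 to 7.39 FPKM.

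Promoter sequences, 250 bases before to 50 after the transcription start, come from RefSeq on GRCm38.p6, which held entries for 6 of the 10 genes. C2, Cfb, C4b and Masp1 had no entry. The promoters of C1ra (chr6:124512371-124512670, plus strand) and of C1s1 (chr6:124542310-124542609, minus strand, the more upstream of 2 entries) are shown because the 2 proteases work as a pair and their RNAs were lowest in the same library.
C1ra: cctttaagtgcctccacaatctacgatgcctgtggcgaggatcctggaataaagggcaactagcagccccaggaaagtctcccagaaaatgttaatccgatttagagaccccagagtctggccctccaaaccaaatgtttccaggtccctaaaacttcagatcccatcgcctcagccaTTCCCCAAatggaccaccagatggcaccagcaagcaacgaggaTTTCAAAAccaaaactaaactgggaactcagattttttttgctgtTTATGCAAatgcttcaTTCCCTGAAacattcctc
C1s1: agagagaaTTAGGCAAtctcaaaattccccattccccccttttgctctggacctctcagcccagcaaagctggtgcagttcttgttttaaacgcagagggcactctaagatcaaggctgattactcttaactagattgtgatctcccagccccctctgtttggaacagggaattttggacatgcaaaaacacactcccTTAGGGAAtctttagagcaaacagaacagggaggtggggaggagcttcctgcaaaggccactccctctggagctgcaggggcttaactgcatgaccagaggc

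Capitals mark matches, on either strand, to a C/EBP pattern (TTNCNNAA), a STAT pattern (TTCNNNGAA), an NF-kB pattern, an HNF1 pattern or TATAAA. The first of these was present in 40.7%, the next in 8.3%, the third in 5.56%, the HNF1 pattern in 0.14% and TATAAA in 13.6% of 32851 mouse promoters of the same length. C1ra held 3 C/EBP matches, at positions -72, -29 and 16 from the RefSeq start, and 1 STAT match at 32. The GENCODE start of C1ra, at 124512405, lies inside the window shown and upstream of the RefSeq start. All of these matches lie downstream of the GENCODE start. C1s1 held 2 C/EBP matches, at -242 and -52. A match is a description of letters and not a binding site.

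The mannose-binding lectins did not differ between the genotypes beyond their spread. Mbl1 (ENSMUSG00000037780, chromosome 14, 41151458 to 41159601, plus strand) was at 61.2, 80.5 and 136 FPKM in WT and at 98.7, 89.8 and 93.6 FPKM in LKO. All LKO values lay inside the WT range. Mbl2 (ENSMUSG00000024863, chromosome 19, 30232942 to 30239687, plus strand) was at 114, 252 and 264 FPKM in WT and at 115, 245 and 296 FPKM in LKO. Both libraries numbered 1 had less than 0.5 times the Mbl2 level of any other library, in WT as in LKO. The log2 differences were 0.10 ± 0.36 for Mbl1 (SE; 95% interval -0.74 to 0.94) and 0.04 ± 0.50 for Mbl2 (-1.13 to 1.21), with limma adjusted p = 0.964 and 0.990. Both signs turned under scaling to library totals (-0.01 and -0.07).

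The ratio of Mbl1 to Mbl2 was 0.535, 0.319 and 0.516 in WT and 0.861, 0.366 and 0.317 in LKO. On the log2 scale it differed by 0.06 between groups (exact permutation test, two-sided, p = 1). It was 1 of 3 ratios compared, whose Benjamini-Hochberg adjusted p ran from 0.6 to 1.

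Masp1 and Masp2 encode the proteases that bind these lectins, and Masp1 also gives rise to MASP-3 by alternative splicing, which a sum over the gene does not separate. Masp1 (ENSMUSG00000022887, chromosome 16, 23449417 to 23520815, minus strand) was at 13.1, 10.7 and 13.6 FPKM in WT and at 15.9, 11.3 and 13.98 FPKM in LKO. It had the narrowest range of the 9 tested genes, its highest library being 1.49 times its lowest. The log2 difference was 0.12 ± 0.25 (SE; 95% interval -0.47 to 0.71; limma adjusted p = 0.930), and -0.03 with quantile normalization.

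Masp2 (ENSMUSG00000028979, chromosome 4, 148602554 to 148615499, plus strand) was at 26.1, 30.6 and 39.8 FPKM in WT and at 17.3, 23.9 and 33.0 FPKM in LKO. LKO replicate 3 lay within the WT range and the other 2 LKO libraries below it. The log2 difference was -0.39 ± 0.33 (SE; 95% interval -1.16 to 0.38; limma adjusted p = 0.796). Its exons overlap those of Tardbp on the opposite strand over 1817 bases, 54.9% of the total, so its FPKM carries the same limit as that of C2. Tardbp was at 9.10 to 11.9 FPKM in WT and at 5.04 to 12.9 FPKM in LKO. The ratio of Masp1 to Masp2 was 0.503, 0.349 and 0.343 in WT and 0.923, 0.475 and 0.424 in LKO, a log2 difference of 0.54 (exact permutation test, two-sided, p = 0.3, adjusted 0.6).

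C3, cleaved by the C3 convertases and the source of the C3b that coats targets, was the most abundant of the 10 in all 6 libraries. C3 (ENSMUSG00000024164, chromosome 17, 57203970 to 57228136, minus strand) was at 336, 709 and 537 FPKM in WT and at 554, 1047 and 1466 FPKM in LKO. All 3 LKO libraries lay above the WT median, and 2 lay above every WT library, while LKO replicate 1 fell inside the WT range. The means were 527 ± 187 and 1022 ± 456 FPKM (SD, n = 3 each), a ratio of 1.94. The log2 difference was 0.91 ± 0.48 (SE; 95% interval -0.22 to 2.04; limma adjusted p = 0.638). It was 0.60 without LKO replicate 3 and 1.30 without LKO replicate 1. Without both libraries numbered 1 it was 1.00. With 33279 reads or more in each library, counting error was at most 0.548% of a value.

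The C3 promoter (chr17:57228087-57228386, minus strand, RefSeq, GRCm38.p6) is shown because C3 had the largest difference above 0 and is a known acute phase gene, with the same patterns in capitals.
C3: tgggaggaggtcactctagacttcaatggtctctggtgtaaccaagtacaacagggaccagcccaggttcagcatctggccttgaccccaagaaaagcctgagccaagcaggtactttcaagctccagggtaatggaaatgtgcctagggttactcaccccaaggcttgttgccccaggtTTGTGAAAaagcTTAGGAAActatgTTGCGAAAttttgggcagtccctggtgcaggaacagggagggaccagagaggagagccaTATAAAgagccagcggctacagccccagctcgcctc

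It held 3 C/EBP matches, at -70, -58 and -45, and TATAAA at 14. It held no STAT, NF-kB or HNF1 match in these letters, which says nothing about those factors.

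**Figure D4:**
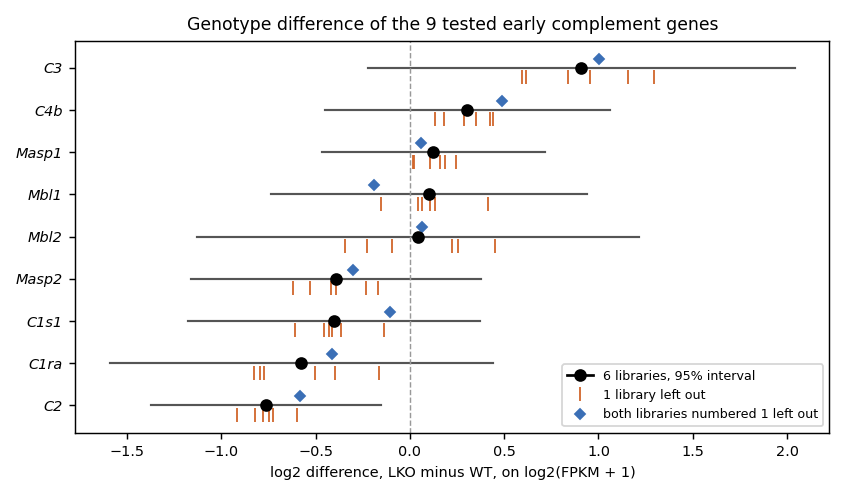
Log2 differences between LKO and WT on the log2(FPKM + 1) scale for the 9 tested genes, with 95% intervals from limma (black), the values with 1 library left out (orange ticks) and without both libraries numbered 1 (blue diamonds). The interval of C2 (-1.37 to -0.16) lies below 0, and the other 8 include 0.

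Ordered by mean FPKM in WT, the genes ran C3, Mbl2, C4b, C1s1, Mbl1, C1ra, Masp2, C2, Masp1 and Cfb, from 527 to 0.302 FPKM. In LKO the order was C3, C4b, Mbl2, Mbl1, C1s1, C1ra, Masp2, Masp1, C2 and Cfb, so 3 neighbouring pairs traded places. Mbl2 and C4b overlapped in WT, as did C1s1 and Mbl1, and C2 and Masp1. C3 lay above the next gene in every library. The 10 genes summed to 937, 1420 and 1343 FPKM in WT and to 1094, 1748 and 2349 FPKM in LKO. C3 made up 35.8%, 49.9% and 40.0% of the sum in WT and 50.6%, 59.9% and 62.4% in LKO. The lowest LKO share, 50.6%, was close to the highest WT share, 49.9%, and the difference was not tested. Without C3 the sum was 601, 711 and 805 FPKM in WT and 540, 701 and 883 FPKM in LKO, overlapping in both directions. The ratio of C4b to C3 was 0.663, 0.218 and 0.333 in WT and 0.384, 0.182 and 0.196 in LKO (log2 difference -0.61, exact permutation test, two-sided, p = 0.4, adjusted 0.6).

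Other genes of the pathway were read from lists of gene names, chosen with earlier results of these data known. Of 13 other initiation genes 9 were tested and none was called, with a median log2 difference of 0.04, equal to that of the 9 members, against 0.03 over all genes. At an unadjusted p under 0.05 there were 0. The ficolin gene Fcna, a lectin of macrophages, was at 7.65 ± 4.53 FPKM in WT and 12.9 ± 3.30 FPKM in LKO (limma adjusted p = 0.666). C1rl, a relative of C1r, had 36.5 ± 9.33 FPKM in WT and 24.0 ± 13.6 FPKM in LKO (limma adjusted p = 0.699). Colec10, a collectin that binds MASPs, averaged 2.61 ± 0.622 FPKM in WT and 1.92 ± 0.229 FPKM in LKO (limma adjusted p = 0.766). Its groups all but touched, with a highest LKO value of 2.17 FPKM and a lowest WT value of 2.18 FPKM. It was the 1 of these 9 with LKO below every WT library, against 7.42% of all genes.

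Of 21 regulators 16 were tested, with a median of 0.05. Of these, 9 were fitted above 0 and 7 below. The 1 that passed the adjusted threshold was Susd4, which encodes an inhibitor of the C3 convertase and fell (12.5 ± 3.79 to 0.306 ± 0.162 FPKM, limma adjusted p = 0.0168). Its adjusted p was between 0.0599 and 0.148 in 6 of the alternative settings, among them the fits without WT replicate 1, WT replicate 3 or LKO replicate 2. All 6 tested terminal pathway genes were fitted below 0 (median -0.50), and none was called or had an unadjusted p under 0.05. The largest of these differences were those of C6 (57.2 ± 10.4 and 32.2 ± 18.4 FPKM) and of Hc, the gene of C5 (76.0 ± 21.1 and 49.4 ± 17.5 FPKM). C8b and C8g, subunits of C8 in the membrane attack complex, averaged 79.1 ± 20.04 and 312 ± 69.9 FPKM in WT and 56.2 ± 20.3 and 219.7 ± 30.1 FPKM in LKO. Of 10 complement receptor genes 3 were tested, and none was called or had an unadjusted p under 0.05 (median 0.13). Vsig4, the complement receptor of Kupffer cells, was at 2.47 ± 1.61 FPKM in WT and 2.89 ± 2.02 FPKM in LKO (limma adjusted p = 0.964).

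Acute phase genes, and the receptors and factors that induce complement in liver, were read in the same way. These lists too were chosen with earlier results of these data known, so their shares against all genes are a description only. Of 24 acute phase genes 19 were fitted above 0, with a median of 1.08 against 0.03 over all genes, where 54.1% of genes were above 0. None was called, and at an unadjusted p under 0.05 there were 9 higher and 1 lower, against 4.28% and 4.93% of all genes. Itih4, an inter-alpha-trypsin inhibitor relative, averaged 231 ± 15.4 FPKM in WT and 664 ± 38.4 FPKM in LKO (limma adjusted p = 0.175). Il1rn, the interleukin 1 receptor antagonist, averaged 0.306 ± 0.112 FPKM in WT and 1.73 ± 0.741 FPKM in LKO (limma adjusted p = 0.275). Steap4, a metalloreductase, averaged 12.7 ± 5.64 and 91.4 ± 99.2 FPKM (limma adjusted p = 0.392). Lcn2, which binds bacterial siderophores, was at 0.672 to 7.81 FPKM in WT and at 140, 376 and 6.66 FPKM in LKO replicates 1 to 3 (limma adjusted p = 0.389), so that LKO replicate 3, highest in C3, lay within the WT range. Of 21 receptors and factors 16 were fitted above 0 (median 0.52), 0 were called and 6 had an unadjusted p under 0.05, all higher, against 4.28% of all genes. Stat3, activated by the interleukin 6 receptor, averaged 7.27 ± 0.154 FPKM in WT and 18.8 ± 5.28 FPKM in LKO (limma adjusted p = 0.232). Cebpd, a C/EBP factor of the acute phase, averaged 4.15 ± 1.18 FPKM in WT and 12.2 ± 4.15 FPKM in LKO (limma adjusted p = 0.251). The tumour necrosis factor receptor genes Tnfrsf1a (23.4 ± 7.21 and 63.2 ± 21.3 FPKM) and Tnfrsf1b (6.02 ± 2.003 and 11.4 ± 0.459 FPKM) had limma adjusted p = 0.318 and 0.393. All 4, named because they had the smallest p of the list, lay above every WT library in LKO. Of the whole list 8 of 21 did, against 8% of all genes tested.

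Markers of other liver cells were summed per library over whole lists. The 8 Kupffer cell and macrophage markers summed to 15.9 to 42.8 FPKM in WT and 15.4 to 46.2 FPKM in LKO. Of 7 tested, 6 were fitted above 0 and 1 below, where 54.1% of all genes were above 0. The 8 neutrophil markers summed to 0.803 to 3.82 FPKM in WT and 3.27 to 16.3 FPKM in LKO. Ly6g was at 0 in all libraries, and the 4 tested were all fitted above 0. Counts in WT were low for the neutrophil markers S100a8 (5, 5 and 4 reads) and Retnlg (7, 0 and 0 reads). The 6 sinusoidal endothelial markers summed to 24.3 to 36.8 and 13.4 to 39.7 FPKM, with all 6 fitted below 0. The 7 stellate cell and fibroblast markers summed to 11.8 to 16.0 and 11.9 to 19.4 FPKM, with 5 fitted above 0 and 2 below. The 6 B and plasma cell markers summed to 2.62 to 6.09 FPKM in WT and 0.614 to 1.66 FPKM in LKO, and the 2 tested were fitted below 0. The part of these cells in the levels of the complement genes was not tested.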

How the data were processed

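Liver RNA of 3 WT and 3 LKO libraries was measured, grouped by the sample titles. The submitters' processing notes name mm10, DESeq2 1.20.0, featureCounts 1.5.0-p3, HISAT2 2.0.5 and CASAVA, without roles. The sources used here do not give the annotation, the strand setting or how reads on shared exons were counted. The authors deposited FPKM per gene. FPKM multiplied by exon length in GENCODE vM21 fell on whole reads, within 0.05, for 96.1% to 96.4% of values above 0, and the implied library scale followed size factors. The design's limma-trend fit (limma 3.58.1, R 4.3.3, robust) was run on log2(FPKM + 1) over all 11672 genes, genotype only, with Benjamini-Hochberg adjustment at 0.05. Log2 differences understate changes of low genes. The fit was run on simulated data with equal relative scatter for every gene and no outlying library. Its power in the data used here was not measured. The rule for named genes took all members, Arid2, near copies, up to 4 genes of smallest p per list, and 3 genes of like pattern. Some genes under it, mainly markers, are not reported here. C1qa, C1qb, the overlapping genes and the neighbours of C2 and C4a were named after their values were seen. Members, lists and tests were chosen with earlier results of these data known. The ratio of C2 to Cfb was left out because Cfb was at 0 in 1 library. Alternatives were omitted libraries, voom, array weights, 2 scalings, the replicate block, a stricter filter (1 FPKM), none, and 0.1 as pseudocount. Figures used Python 3.11.15 and matplotlib 3.10.9.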

Additional observations from a re-analysis of the deposited data

How the results depend on the processing

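The count of members called by limma was 0 in all settings except array quality weights, where C2 alone was called (1 member, adjusted p = 0.0412, log2 difference -0.77) among 1195 genes, or 10.2% of those tested, with WT replicate 3 weighted 5.44 and LKO replicate 1 weighted 0.299. The count over all genes was 5, and 1 with no filter, 2 without both libraries numbered 1, 3 with quantile normalization and 0 with the replicate number as a block. Leaving out 1 library gave 0 to 21 genes, with 0 without WT replicate 3 (639 at an unadjusted p under 0.05), 2 without WT replicate 1, 3 without LKO replicate 1 or 2 and 21 without LKO replicate 3. The block is no pairing given by the labels, in which the samples share only a number. Deviations of same-numbered libraries correlated at 0.49, 0.30 and -0.02, and 1 of 3 WT libraries correlated best with its own number. Whether same-numbered libraries share a batch was not tested, and so few libraries cannot settle it. Under the block 2 members had an unadjusted p under 0.05, beside 1478 of all 11672 genes. In the main fit it was 1 member beside 1076 genes. C2 stayed between -0.95 and -0.58 over all 16 fits, C3 between 0.60 and 1.30, C4b between 0.13 and 0.49, C1ra between -0.83 and -0.17, C1s1 between -0.61 and -0.10 and Masp2 between -0.62 and -0.17.

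Signs turned for the members Mbl1, Mbl2 and Masp1, all near 0 in the main fit. They also turned for C4a, Arid2, C1qa, C1qb and C1qc, which are not members. Without both libraries numbered 1, Mbl1 was -0.19. With voom, Mbl1 was -0.0153, Mbl2 -0.0801 and C1qb -0.0883. With scaling to library totals they were -0.0133, -0.0724 and -0.0564. With quantile normalization Mbl2 was -0.0807, Masp1 -0.0320 and C1qb -0.0558. With array weights Mbl1 was -0.37, Mbl2 -0.0696, Masp1 -0.11, C1qb -0.24 and C4a 0.43. With 1 library left out, Mbl1 ran from -0.15 to 0.42, Mbl2 from -0.35 to 0.45, C4a from -1.34 to 1.23, Arid2 from -0.19 to 0.12, C1qa from -0.13 to 0.68, C1qb from -0.39 to 0.54 and C1qc from -0.0680 to 0.63. Voom moved the median of all genes by -0.11. The members' median ran from -0.35 to 0.19 over the 16 fits. The Mbl1 to Mbl2 log2 ratio ran from -0.39 to 0.34, Masp1 to Masp2 from 0.20 to 0.76, and C4b to C3 from -0.97 to -0.17, with 1 library left out. The causes were not tested.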

Other observations

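C2, Cfb and C4b lie in the class III region of the major histocompatibility complex, and a window of 200 kb on each side of C2, chosen after seeing the data, held 19 other tested genes. Their median log2 difference was -0.04, with 10 below 0 (limma), and none was called. Groups did not overlap for 2 of the 19, against 15.4% of all genes. Neu1, a lysosomal sialidase, was below every WT library in LKO (13.3 ± 0.246 and 9.97 ± 2.03 FPKM, limma adjusted p = 0.697). Hspa1b, an inducible heat shock protein, was above every WT library (4.29 ± 2.52 and 12.1 ± 6.10 FPKM, limma adjusted p = 0.486). Nelfe, the tested gene just downstream of Cfb, was at 14.6 ± 2.38 and 13.2 ± 2.08 FPKM, and Ehmt2, just upstream of C2, at 15.5 ± 4.79 and 12.9 ± 4.29 FPKM. In this window 7 of the 19 genes (36.8%) had their highest value of the 6 libraries in LKO replicate 1 and their lowest in LKO replicate 3, against 9.36% of all genes tested. They were C4a, Stk19, Dxo, Cyp21a1, Cyp21a2-ps, 1110038B12Rik and Hspa1a, and the pattern was picked after their values were seen. In LKO replicate 3, Cyp21a1 rested on 1 read and Hspa1a on 13, the latter beside 14 reads in WT replicate 1. Stk19 was at 23.3, 8.66 and 2.27 FPKM and Dxo at 42.5, 20.2 and 10.2 FPKM in LKO.

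The mean standardised level of the 9 tested members was -0.22, -0.05 and 0.51 in the WT libraries (replicates 1, 2, 3) and -0.67, -0.17 and 0.59 in LKO. It averages genes with different patterns: C1s1 and C2 were highest in WT replicate 1, Masp1 in LKO replicate 1, and C3, C4b and Mbl2 in LKO replicate 3. Among 2815 other genes averaging 10 FPKM or more, BC005537 (Pearson r = 0.986), C030006K11Rik (0.970) and Akr1d1 (0.952), a bile acid synthesis reductase, had the patterns most like it over the 6 libraries. These values are a description of 6 libraries, ranked over many genes.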
